A study of Rattus norvegicus with 8 samples.

Results

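The genes described here carry family names of sequence-specific transcription factors and differed between glia rich and glia poor in lipid droplets. They were found by family name among the genes that the authors called different, and 32 of the 1187 called genes were taken, of which 13 were higher and 19 were lower in droplet-rich glia. By general knowledge Zfp36l2 and Zfp804a are no DNA-binding factors, but both are counted among the 32 factors. Glia of the rat hippocampus, taken on postnatal day 0, were kept in medium containing 10% fetal bovine serum for 3 to 5 days in vitro. Nile red, which lights up stored neutral fat, was added, and the cells were sorted by fluorescence. Of the 8 RNA samples sequenced, 4 were glia with many lipid droplets (LD-high) and 4 were glia with few (LD-low), and no other treatment or genotype is given in the labels. The labels do not say whether the samples of a group came from separate animals or cultures, so the authors' p-values may measure only technical spread.

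The values are 1 expression level per gene and group, given here as FPKM (fragments scaled to transcript length and to mapped fragments), with the authors' p-value and a q-value, the p-value adjusted for all genes tested. Levels of single samples were not used here, so no level carries an SD and the depth of each library is unknown. The authors called 9.14% of 12981 tested genes at q below 0.05, 4.92% higher and 4.22% lower in LD-high glia. The factors were taken from these calls, so that their being called is no result. Counts of called genes in families and lists below are to be read beside these shares. Some of the symbols counted may not have been tested. Among the factors the share that was lower was 59.4%, against 46.2% of all called genes.

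Transcription factors bind short DNA sequences and set which genes a cell transcribes, and families share a DNA-binding fold. Proneural basic helix-loop-helix proteins and the Sox factors of immature neurons act in the making of neurons. Hes, Id and Nfi proteins act in neural progenitors and glia. Forkhead, T-box, Runt and Ebf factors shape mesenchyme, the source of fibroblasts and of the mural cells that wrap vessels. In the hippocampus, newborn rats still form granule neurons of the dentate gyrus.

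The promoters of 4 factors are shown because these genes stand for the patterns described below: Neurod1 and Sox11, neuronal factors that were lower, and Tbx18 and Foxc1, mesenchymal factors that were higher in LD-high glia. Each is the 250 bases before the transcription start in RefSeq, build GRCr8, written 5′ to 3′ on the strand of the gene. All 4 genes lie on the minus strand, and their windows are chr3:84770455-84770704, chr6:49738795-49739044, chr8:97559966-97560215 and chr17:32844101-32844350. Capitals mark matches, on either strand, to any of 6 short motifs. CAGATG is the E-box that proneural factors favour, and a further E-box searched was CAGCTG. The piece CAGCACC belongs to the element of the neuronal repressor REST. The letters AGGAAGT stand for ETS factors, the letters TGACCT for nuclear receptors, and the letters ACAAAG for Sox and Tcf factors.
Neurod1: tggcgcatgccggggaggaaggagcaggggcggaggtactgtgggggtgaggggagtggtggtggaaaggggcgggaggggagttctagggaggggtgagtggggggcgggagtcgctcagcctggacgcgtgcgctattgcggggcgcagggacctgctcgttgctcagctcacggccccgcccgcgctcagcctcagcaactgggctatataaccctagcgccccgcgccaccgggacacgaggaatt
Sox11: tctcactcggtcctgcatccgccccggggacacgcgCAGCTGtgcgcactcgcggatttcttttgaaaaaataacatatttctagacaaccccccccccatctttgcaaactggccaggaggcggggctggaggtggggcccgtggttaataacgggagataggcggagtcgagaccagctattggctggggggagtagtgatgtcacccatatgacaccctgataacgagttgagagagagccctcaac
Tbx18: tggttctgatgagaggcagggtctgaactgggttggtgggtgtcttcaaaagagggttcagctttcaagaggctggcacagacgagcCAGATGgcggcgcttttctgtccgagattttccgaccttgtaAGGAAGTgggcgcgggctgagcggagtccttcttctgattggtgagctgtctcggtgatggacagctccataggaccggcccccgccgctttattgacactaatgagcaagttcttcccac
Foxc1: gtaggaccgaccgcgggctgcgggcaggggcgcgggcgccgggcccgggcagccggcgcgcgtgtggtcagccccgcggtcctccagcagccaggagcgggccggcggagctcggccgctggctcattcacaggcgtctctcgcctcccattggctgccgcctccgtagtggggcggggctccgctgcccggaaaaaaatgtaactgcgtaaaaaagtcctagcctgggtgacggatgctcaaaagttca

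The Neurod1 and Foxc1 windows were rich in G and C, at 69.2% and 70.0% of bases, and held none of the 6 motifs. The Sox11 window held 1 CAGCTG at 56.8% G and C. The Tbx18 window held 1 CAGATG and 1 AGGAAGT at 55.6%. Other forms of the E-box were not searched. Of the 32 factors, 19 had a promoter in the RefSeq table. CAGATG was found in 2 of the 19 (10.5%) and in 14.9% of the promoters of 27457 genes, and CAGCTG in 3 of the 19 (15.8%) and in 12.9% of all. CAGCACC was found before 1 of the 19 factors, Zfp384 (5.26%, against 6.01% of all promoters). AGGAAGT was found before 2 of the 19 (10.5%, against 7.56%). TGACCT was found before Runx2 alone among the 19 (5.26%, against 14.8%), and ACAAAG before Pou2f2 alone (5.26%, against 17.2%). These matches describe letters in a window and say nothing of binding.

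Factors of neuronal differentiation held the largest decreases. Neurod1, a proneural factor that granule neurons of the dentate gyrus need, stood at 1.49 FPKM in LD-high glia and 56.4 FPKM in LD-low glia (log2 fold change -5.25, q = 0.00187) in the authors' deposited table. The LD-high level was 2.64% of the LD-low level, and Neurod1 ranked 1 by size of change among the 528 lower genes above 0 in both groups. Bhlhe22, a basic helix-loop-helix repressor of neurons, stood at 1.16 FPKM in LD-high glia and 16.1 FPKM in LD-low glia (log2 fold change -3.79, q = 0.00187) in the authors' deposited table. Bhlhe22 ranked 28 among those genes. Each gene was the only called one of its name group, which has 7 protein-coding members in RefSeq for the proneural group and 6 for the Bhlh names. No other Neurod or Neurog gene was among the called genes.

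Sox11, a factor of immature neurons, kept a high level in both groups. It stood at 37.2 FPKM in LD-high glia and 70.0 FPKM in LD-low glia (log2 fold change -0.91, q = 0.0102) in the authors' deposited table. Its LD-low level was the highest of all 32 factors, and its LD-high level the third highest. Sox8, which acts beside Sox9 and Sox10 in glia and the oligodendrocyte lineage, stood at 2.71 FPKM in LD-high glia and 9.70 FPKM in LD-low glia (log2 fold change -1.84, q = 0.00187) in the authors' deposited table. Both called Sox genes were lower, 2 of 19 in RefSeq. With 9.14% of all tested genes called, nothing is read about the Sox family from this count. Pou6f1, a POU homeodomain factor of the nervous system, stood at 7.36 FPKM in LD-high glia and 15.8 FPKM in LD-low glia (log2 fold change -1.10, q = 0.0406) in the authors' deposited table.

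In the same comparison 9.14% of all tested genes were called, 4.92% higher and 4.22% lower. Of 23 neuron markers 14 were called and all 14 were lower. Their summed levels were 190 FPKM in LD-high glia and 663 FPKM in LD-low glia in the authors' deposited table. Their median log2 change was -3.02 over the 13 above 0 in both groups, and Slc32a1, the vesicular transporter of inhibitory neurons, is listed at 0 in LD-high glia. The largest decreases among these markers were those of Dcx, a microtubule protein of young neurons (3.39 FPKM in LD-high and 99.7 FPKM in LD-low glia), and Ina, a neuronal filament (0.895 FPKM in LD-high and 25.4 FPKM in LD-low glia), in the authors' deposited table. The part of neurons in the levels of Neurod1, Bhlhe22, Sox11 and Pou6f1 was not tested. In bulk RNA a different number of cells of a type cannot be told apart from a different amount of RNA per cell. Of 15 oligodendrocyte lineage markers 2 were called, and with 9.14% of all tested genes called, nothing is read from this count. The 2 were Pdgfra and Bcas1, both lower, with summed levels of 4.39 FPKM in LD-high glia and 25.9 FPKM in LD-low glia in the authors' deposited table. Their part in the level of Sox8 was not tested.

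Neurod1 (ENSRNOG00000005609) is listed at chromosome 3, 66403184 to 66436668, in the rn6 build of the files, and Bhlhe22 (ENSRNOG00000021745) at chromosome 2, 102685513 to 102688624. Sox11 (ENSRNOG00000030034) is listed at chromosome 6, 46629974 to 46631983, and Sox8 (ENSRNOG00000018841) at chromosome 10, 14932348 to 14937336. The Neurod1 locus in the authors' table spans 33.5 kb, 8.43 times the length of the gene in RefSeq, and what part of its level comes from outside the gene was not tested.

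**Figure D1:**
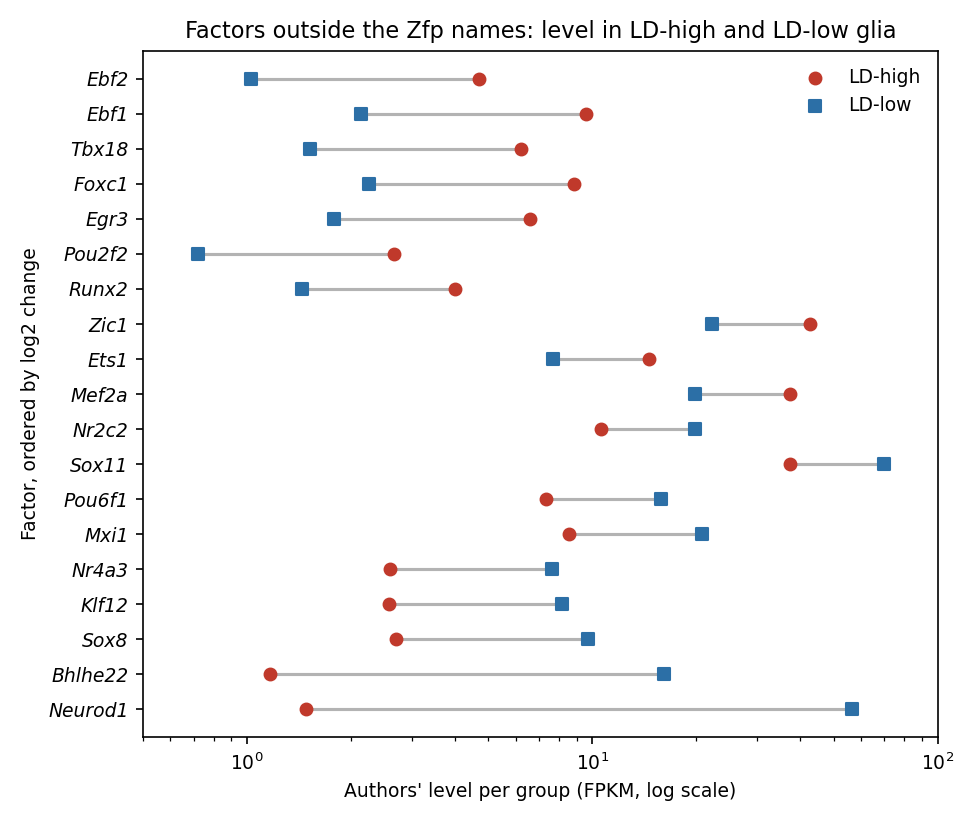
Levels of the 19 factors outside the Zfp names, as the authors' FPKM per group on a log axis; circles are LD-high and squares are LD-low glia, each 1 pooled value with no error bar. The gap is widest for Neurod1 (1.49 against 56.4 FPKM), and the factors that were higher from Ebf2 to Runx2 all lie below 10 FPKM in both groups.

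Several factors of mesenchyme and blood vessels were higher in LD-high glia. A list for this role holds 36 symbols, of which 5 were called higher (Ebf1, Tbx18, Foxc1, Runx2 and Ets1) and 0 lower in the authors' deposited table. Over all tested genes 4.92% were called higher and 4.22% lower, and at q below 0.01 the list kept 3 of the 5. Tbx18, a T-box factor of pericytes and vascular smooth muscle, stood at 6.23 FPKM in LD-high glia and 1.52 FPKM in LD-low glia (log2 fold change 2.03, q = 0.00187) in the authors' deposited table. Foxc1, a forkhead factor that the meninges and pericytes need, stood at 8.85 FPKM in LD-high glia and 2.25 FPKM in LD-low glia (log2 fold change 1.98, q = 0.00187) in the authors' deposited table. Runx2, the Runt factor of bone-forming cells, stood at 3.99 FPKM in LD-high glia and 1.45 FPKM in LD-low glia (log2 fold change 1.47, q = 0.0413) in the authors' deposited table. Ets1, an ETS factor of lymphocytes and endothelium, stood at 14.6 FPKM in LD-high glia and 7.70 FPKM in LD-low glia (log2 fold change 0.92, q = 0.0232) in the authors' deposited table.

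Ebf1 and Ebf2 are related factors that act in neurons, in B cells (Ebf1) and in mesenchyme and fat cells. They are the 2 called of the 4 Ebf genes in RefSeq, beside 9.14% of all tested genes called. Ebf2 stood at 4.70 FPKM in LD-high glia and 1.03 FPKM in LD-low glia (log2 fold change 2.20, q = 0.00187) in the authors' deposited table, the largest increase among the factors. Ebf1 stood at 9.55 FPKM in LD-high glia and 2.14 FPKM in LD-low glia (log2 fold change 2.16, q = 0.00187) in the authors' deposited table. The genes lie on different chromosomes, Ebf1 (ENSRNOG00000028845) at chromosome 10, 23661013 to 24050209, and Ebf2 (ENSRNOG00000011548) at chromosome 15, 43905099 to 44103742 (rn6). Tbx18 (ENSRNOG00000010685) is listed at chromosome 8, 95359354 to 95387363, and Foxc1 (ENSRNOG00000017800) at chromosome 17, 33947506 to 33951484. Zfp423, a zinc finger protein first known as a partner of Ebf1 in the rat, went the other way, with 11.7 FPKM in LD-high glia and 24.3 FPKM in LD-low glia (log2 fold change -1.05, q = 0.00187) in the authors' deposited table. Zfp423 overlaps the protein-coding gene LOC120098652 in RefSeq, and reads of the overlap cannot be assigned without the strand setting.

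The marker counts of this paragraph stand beside 4.92% of all tested genes called higher and 4.22% called lower. Of the list of fibroblast and mural markers, 9 of 18 symbols were called and all 9 were higher, but Tbx18 and Foxc1 are themselves on it. Without them 7 of 16 symbols were called, with a summed level of 229 FPKM in LD-high glia and 72.9 FPKM in LD-low glia in the authors' deposited table. Among these were Col1a1, a collagen chain of fibroblasts (113 FPKM in LD-high and 39.8 FPKM in LD-low glia), and Kcnj8, a potassium channel of pericytes (2.29 FPKM in LD-high and 0.234 FPKM in LD-low glia), in the authors' deposited table. Of the endothelial markers, 3 of 13 were called and all 3 were higher, with summed levels of 41.0 FPKM in LD-high glia and 13.0 FPKM in LD-low glia in the authors' deposited table. The part of these cells in the levels of the factors was not tested.

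The remaining factors that were higher have roles in several lineages. Egr3, an immediate early zinc finger factor, stood at 6.59 FPKM in LD-high glia and 1.78 FPKM in LD-low glia (log2 fold change 1.88, q = 0.0214) in the authors' deposited table. Pou2f2, the POU factor Oct2 of B cells, macrophages and neurons, stood at 2.66 FPKM in LD-high glia and 0.722 FPKM in LD-low glia (log2 fold change 1.88, q = 0.0147) in the authors' deposited table. Pou2f2 had the lowest level of the 32 factors in LD-low glia. Zic1, a factor of the dorsal neural tube and the meninges, stood at 42.8 FPKM in LD-high glia and 22.2 FPKM in LD-low glia (log2 fold change 0.95, q = 0.0152) in the authors' deposited table. Mef2a, a MADS box factor of muscle and neurons, stood at 37.3 FPKM in LD-high glia and 19.8 FPKM in LD-low glia (log2 fold change 0.91, q = 0.00841) in the authors' deposited table. Zic1 and Mef2a were the factors with the highest levels in LD-high glia. Zic1, Runx2 and Zfp280c overlap the genes Zic4, Supt3h and Slc25a14 in RefSeq and, without the strand setting, reads of an overlap cannot be assigned.

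The 2 POU genes called, of 18 in RefSeq, went in opposite directions, Pou2f2 higher and Pou6f1 lower. The list of 58 neuronal symbols likewise held factors of both directions, with 5 higher (Ebf1, Ebf2, Mef2a, Pou2f2 and Zic1) and 4 lower (Neurod1, Bhlhe22, Sox11 and Pou6f1) in the authors' deposited table. Ebf1 also stands on the mesenchymal list and Pou2f2 on the myeloid and lymphoid list. Ebf2, Mef2a and Zic1 stand on the neuronal list alone, although their roles given above reach beyond neurons. Of all tested genes 4.92% were called higher and 4.22% lower. Of the 30 symbols of the myeloid and lymphoid list, 2 were higher (Ets1 and Pou2f2) and 1 was lower (Nr4a3). In the same comparison 15 of 25 myeloid markers were called, all 15 higher, with summed levels of 587 FPKM in LD-high glia and 55.6 FPKM in LD-low glia in the authors' deposited table, and their part in the level of Pou2f2 was not tested. None of these 15 is listed at 0 in either group. The largest change was that of Cd53, a surface protein of white blood cells, with 40.3 FPKM in LD-high glia and 1.90 FPKM in LD-low glia in the authors' deposited table.

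Both called nuclear receptors with Nr names were lower. Nr4a3, an orphan receptor that is also an immediate early gene, stood at 2.59 FPKM in LD-high glia and 7.64 FPKM in LD-low glia (log2 fold change -1.56, q = 0.0064) in the authors' deposited table. Nr2c2, the orphan receptor TR4, stood at 10.6 FPKM in LD-high glia and 19.8 FPKM in LD-low glia (log2 fold change -0.90, q = 0.0416) in the authors' deposited table. They were 2 of the 27 RefSeq genes in the nuclear receptor name group, which takes in the Ror names of the rule too, beside 9.14% of all tested genes called. Thra, a thyroid hormone receptor whose name the rule did not take, was called lower too, with 11.0 FPKM in LD-high glia and 34.6 FPKM in LD-low glia (log2 fold change -1.66) in the authors' deposited table. The lipid-sensing liver X receptor genes Nr1h2 and Nr1h3 were not among the called genes. Of 14 symbols of immediate early factors 2 were called, Egr3 higher and Nr4a3 lower, beside 4.92% and 4.22% of all tested genes.

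Klf12, a repressor of the Kruppel-like family, stood at 2.58 FPKM in LD-high glia and 8.18 FPKM in LD-low glia (log2 fold change -1.66, q = 0.0186) in the authors' deposited table, the 1 called of 18 Kruppel-like genes in RefSeq. Mxi1, which pairs with Max and opposes Myc, stood at 8.56 FPKM in LD-high glia and 20.8 FPKM in LD-low glia (log2 fold change -1.28, q = 0.0064) in the authors' deposited table. Mycl and Mycn, of the Myc family itself, were also lower. Mycl stood at 0.850 FPKM in LD-high glia and 5.39 FPKM in LD-low glia (log2 fold change -2.66), and Mycn at 1.73 FPKM in LD-high glia and 5.88 FPKM in LD-low glia (log2 fold change -1.76), in the authors' deposited table.

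Genes with Zfp names, a mixed group of zinc finger proteins, made up 13 of the 32 factors, with 3 higher and 10 lower in LD-high glia. RefSeq has 383 protein-coding rat genes with such names, the most of any name group. Of all tested genes 9.14% were called, 4.92% higher and 4.22% lower. The lower Zfp genes had a smaller median change than the lower factors of other families, but the ranges overlapped. Their median log2 change was -1.003 over the 9 above 0 in both groups (-1.82 to -0.78), which leaves out Zfp804a. Over the 9 lower factors of other families it was -1.56 (-5.25 to -0.90). The 3 higher ones had a median of 0.92, against 1.88 over the 10 higher factors of other families. These are descriptions with no test.

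Zfp704 stood furthest from the rest, at 3.38 FPKM in LD-high glia and 11.96 FPKM in LD-low glia (log2 fold change -1.82, q = 0.0279) in the authors' deposited table. Zfp827, a zinc finger protein that recruits chromatin complexes to telomeres in human cells, stood at 6.60 FPKM in LD-high glia and 14.1 FPKM in LD-low glia (log2 fold change -1.10, q = 0.0110) in the authors' deposited table. Zfp384, which binds AT-rich DNA in matrix-forming cells, had the highest level of the lower Zfp genes in both groups, with 17.9 FPKM in LD-high glia and 35.2 FPKM in LD-low glia in the authors' deposited table. Of all 32 factors it lay nearest to the threshold, at q = 0.0468, and genes beyond the threshold are not in the sheets used here. Zfp532 had 14.1 FPKM in LD-high glia and 24.1 FPKM in LD-low glia in the authors' deposited table, the smallest change of all 32 factors (log2 fold change -0.78).

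Of the remaining lower Zfp genes above 0 in both groups, Zfp512b, Zfp251 and Zfp142 had like levels. Zfp512b had 7.86 FPKM in LD-high glia and 15.8 FPKM in LD-low glia, and Zfp251 had 8.34 FPKM in LD-high glia and 15.4 FPKM in LD-low glia, in the authors' deposited table. Zfp142 had 8.15 FPKM in LD-high glia and 14.9 FPKM in LD-low glia, and Zfp236 stood lower in both groups with 2.22 FPKM in LD-high glia and 4.53 FPKM in LD-low glia, in the authors' deposited table. Zfp142 overlaps the gene Plcd4 in RefSeq, and the strand setting is not given in the sources used here. Zfp804a, whose human counterpart ZNF804A is known from psychiatric genetics, is listed at 0 in LD-high glia and at 3.56 FPKM in LD-low glia (q = 0.00187) in the authors' deposited table. Since a 0 in such a table may mark an estimate that failed, Zfp804a, the 1 factor with a 0, gets no fold. By general knowledge Zfp804a is no DNA-binding factor, although its name was taken.

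The higher Zfp genes were Zfp641, Zfp36l2 and Zfp280c. Zfp641 stood at 9.80 FPKM in LD-high glia and 3.54 FPKM in LD-low glia (log2 fold change 1.47, q = 0.0423) in the authors' deposited table. Zfp36l2 stood at 23.1 FPKM in LD-high glia and 12.2 FPKM in LD-low glia (log2 fold change 0.92, q = 0.0152) in the authors' deposited table. This protein binds RNA and promotes mRNA decay, and so is not a DNA-binding factor although its name was taken. Zfp280c stood at 26.9 FPKM in LD-high glia and 14.3 FPKM in LD-low glia in the authors' deposited table.

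**Figure D2:**
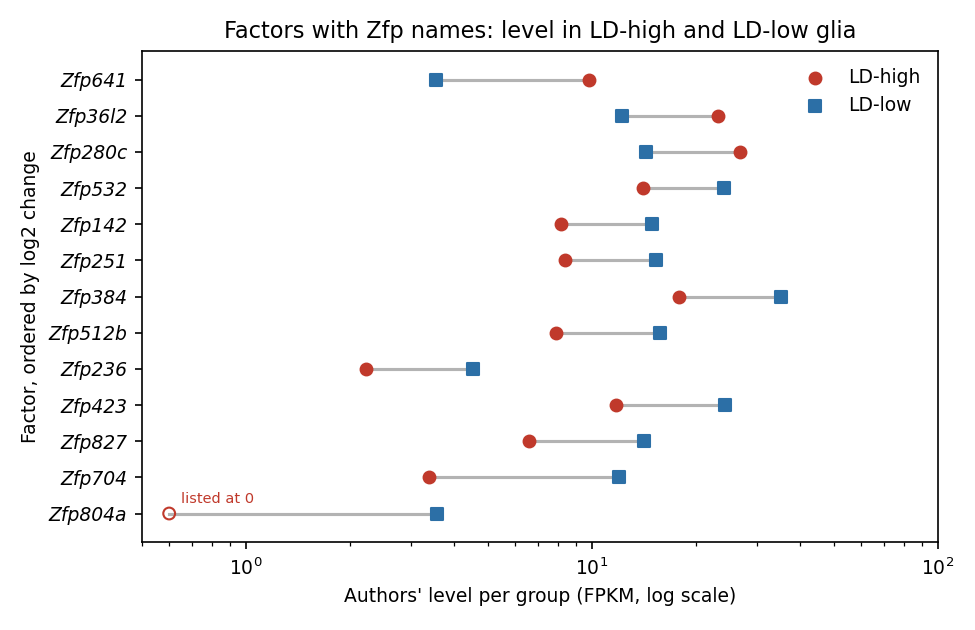
Levels of the 13 genes with Zfp names, as the authors' FPKM per group on a log axis; circles are LD-high and squares are LD-low glia, each 1 pooled value with no error bar, and the open circle at the left edge stands for the listed 0 of Zfp804a, which a log axis cannot show. Most gaps are of like width around a log2 change of 1, with Zfp704 (3.38 against 11.96 FPKM) and Zfp641 (9.80 against 3.54 FPKM) wider.

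Set beside all called genes, the higher factors had low levels. Their median level was 9.55 FPKM in LD-high glia and 2.25 FPKM in LD-low glia in the authors' deposited table, against 31.8 FPKM in LD-high glia and 14.1 FPKM in LD-low glia over all 639 higher genes. The lower factors had a median of 7.36 FPKM in LD-high glia and 15.8 FPKM in LD-low glia, against 4.00 FPKM in LD-high glia and 11.9 FPKM in LD-low glia over all 548 lower genes, in the authors' deposited table. The median log2 change of the higher factors was 1.47, against 1.13 over all higher genes. That of the lower factors was -1.07, against -1.40 over all lower genes. Genes listed at 0 in a group are left out of these medians of log2 change. More than 2-fold changes were seen for 8 of 13 higher and 12 of 18 lower factors above 0 in both groups (61.5% and 66.7%), against 63.5% and 77.1% of all such genes. With the genes listed at 0 included, 8 higher and 13 lower factors were called at a log2 change of at least 1 in either direction, which 6.43% of all tested genes were (3.14% higher and 3.29% lower). With q below 0.01 the factors numbered 5 higher and 8 lower, and 4.27% of all tested genes were called (2.29% higher and 1.98% lower). The factors were drawn from the same calls, so nothing is read from these shares.

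**Figure D3:**
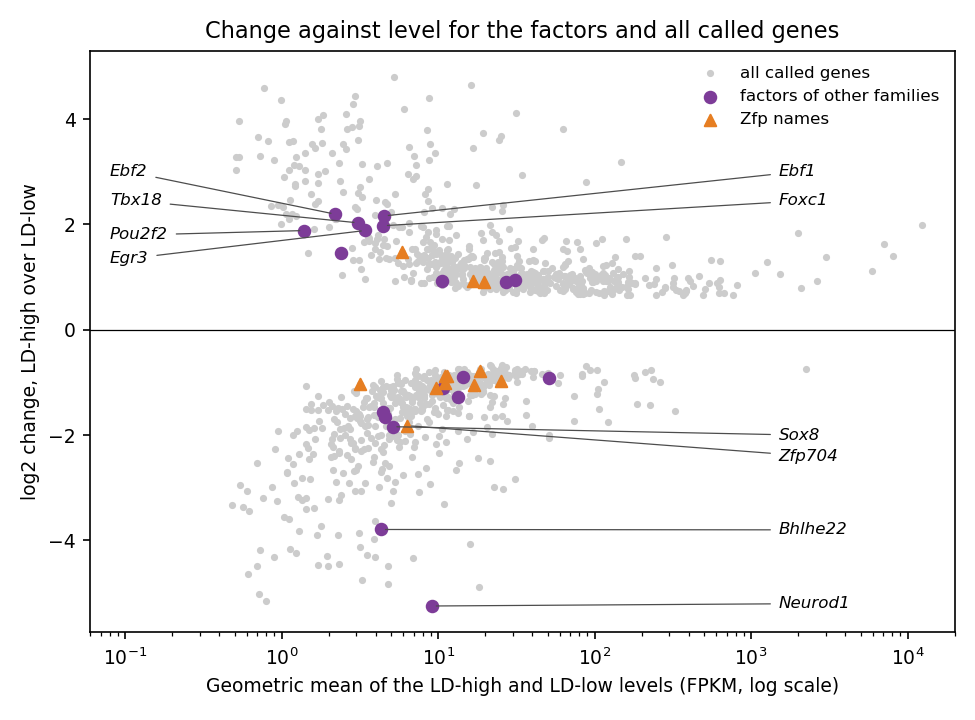
log2 change of LD-high over LD-low against the geometric mean of both levels (FPKM, log axis) for the 31 factors above 0 in both groups (purple circles for other families, orange triangles for Zfp names) and all called genes above 0 in both groups (grey). Neurod1 and Bhlhe22 lie at log2 changes of -5.25 and -3.79, apart from the other factors, which all lie between -1.84 and 2.20.

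Many families had no called gene under the names searched. RefSeq has 670 protein-coding genes with names of the rule, of which 32 were called, and 9.14% of all tested genes were called. Of 29 name groups 16 had a called member, and the 13 without one cover 93 protein-coding genes in RefSeq. Among them were the Hes and Hey repressors that act under Notch, the Id inhibitors that act under BMP signals, the Dlx factors of inhibitory neurons and the Hox genes. The nuclear factor I genes, which act in astrocyte differentiation, count among these groups by spelling alone. RefSeq gives Nf1x as an older name of Nfix, and under that name, which the rule and the lists did not take, it was called lower, with 187 FPKM in LD-high glia and 371 FPKM in LD-low glia (log2 fold change -0.99) in the authors' deposited table. Nfix stands on the list of neuronal symbols too, whose count of lower factors does not hold it. The list for glial or neural progenitor roles has 32 symbols, which include Sox2, Sox9, Hes5, Id3 and Nfia, and 1 was called, Sox8. Genes missing from the sheets may have been tested without passing or may not have been tested. Of 18 astrocyte markers 3 were called, all 3 higher with log2 changes from 0.78 to 0.95 in the authors' deposited table, and Gfap, the defining filament gene of astrocytes, was not among them.

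Lists of other factors, whose names the rule did not take, were read in the same way. Their counts stand beside 9.14% of all tested genes called, 4.92% higher and 4.22% lower. Of 40 neuronal symbols 10 were called, 0 higher and 10 lower. The median log2 change of those above 0 in both groups was -1.98 in the authors' deposited table. Not all are transcription factors: Celf3, Celf5, Elavl3 and Elavl4 bind RNA and Chd5 remodels chromatin, which leaves 5. Of the RNA-binding proteins, Celf5 had the largest change, with 0.890 FPKM in LD-high glia and 17.7 FPKM in LD-low glia in the authors' deposited table. Prox1, a homeobox factor of dentate granule neurons, stood at 3.90 FPKM in LD-high glia and 65.4 FPKM in LD-low glia (log2 fold change -4.07, q = 0.00187) in the authors' deposited table. Cux2, a factor of upper cortical layers, stood at 1.31 FPKM in LD-high glia and 4.78 FPKM in LD-low glia in the authors' deposited table. Satb1 and Emx1, a chromatin organiser and a factor of the dorsal forebrain, had log2 changes of -1.58 and -1.61 there, and Scrt2, a neuronal zinc finger repressor, is listed at 0 in LD-high glia and at 1.69 FPKM in LD-low glia in the authors' deposited table. Elavl3 and Elavl4 are also neuron markers, and the part of neurons in the levels of Prox1 and the other factors was not tested. Of 22 glial and progenitor factors outside the rule, which include Olig1 and Olig2, 0 were called in either direction. The authors' deposited sheets do not hold genes that missed q below 0.05, so no count at an unadjusted p can be set beside it.

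Of 40 mesenchymal and vascular factors outside the rule 3 were called, all 3 higher in the authors' deposited table. The share of all tested genes that was called was 9.14%, with 4.92% higher and 4.22% lower. Prrx2, a homeobox factor of mesenchyme, stood at 10.8 FPKM in LD-high glia and 2.29 FPKM in LD-low glia, and Snai2, a factor of the transition from epithelium to mesenchyme, at 35.1 FPKM in LD-high glia and 10.8 FPKM in LD-low glia, in the authors' deposited table. Epas1, the hypoxia factor HIF-2 alpha, stood at 86.5 FPKM in LD-high glia and 40.8 FPKM in LD-low glia in the authors' deposited table. Of 46 myeloid factors outside the rule 2 were higher, Irf8, a factor that microglia need (log2 fold change 2.95), and Mitf, a factor of melanocytes and osteoclasts (log2 fold change 1.22), and 1 was lower, Sall3 (log2 fold change -0.91), in the authors' deposited table. Irf8 is also one of the 15 myeloid markers that were higher.

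Of 41 symbols for other immediate early and growth factors, 4 were higher and 2 were lower, beside 4.92% and 4.22% of all tested genes. Mlxipl, the carbohydrate-responsive factor ChREBP of lipid synthesis, had the largest change, with 4.21 FPKM in LD-high glia and 0.270 FPKM in LD-low glia (log2 fold change 3.96, q = 0.0064) in the authors' deposited table. Mybl1 and E2f8, of the cell cycle, and Nfe2l2, of the oxidative stress response, had log2 changes from 0.87 to 0.93 there. Fos, Jun, Myc, Srebf1 and Srebf2 were not among the called genes.

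Signals and partners of these factors were listed as well. Of 41 symbols of the BMP and TGF-beta pathway, of which the BMP signals drive Id genes, 7 were higher and 1 was lower. Beside this list and the Notch list below stand 4.92% of all tested genes called higher and 4.22% called lower. The ligand Bmp4 stood at 12.4 FPKM in LD-high glia and 3.44 FPKM in LD-low glia (log2 fold change 1.85, q = 0.00556), and Inhba, an activin subunit, at 117 FPKM in LD-high glia and 36.5 FPKM in LD-low glia (log2 fold change 1.68, q = 0.00187), in the authors' deposited table. Eng, a co-receptor that is also an endothelial marker, had a log2 change of 1.66, and the ligand Bmp6 was the 1 lower member (log2 fold change -1.54), in the authors' deposited table. The Notch pathway list of 34 symbols held 2 called genes, each lower in LD-high glia. These are the receptor Notch2, at 31.3 FPKM in LD-high glia and 54.0 FPKM in LD-low glia, and Numbl, an adaptor that opposes Notch, at 12.5 FPKM in LD-high glia and 23.1 FPKM in LD-low glia, in the authors' deposited table.

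Of 55 corepressors and chromatin partners 6 were called, 0 higher and 6 lower, with a median log2 change of -0.88 in the authors' deposited table. Among all tested genes 9.14% were called, with 4.92% higher and 4.22% lower. Hdac4, a deacetylase that binds Mef2 factors, stood at 2.72 FPKM in LD-high glia and 7.15 FPKM in LD-low glia (log2 fold change -1.39, q = 0.0186), and Chd5 had a log2 change of -2.52, in the authors' deposited table. Chd3, a chromatin remodeller, stood at 5.79 FPKM in LD-high glia and 10.9 FPKM in LD-low glia, in the authors' deposited table. Ncoa1, a coactivator, and Tet3, an enzyme of DNA demethylation, were lower too.

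**Figure D4:**
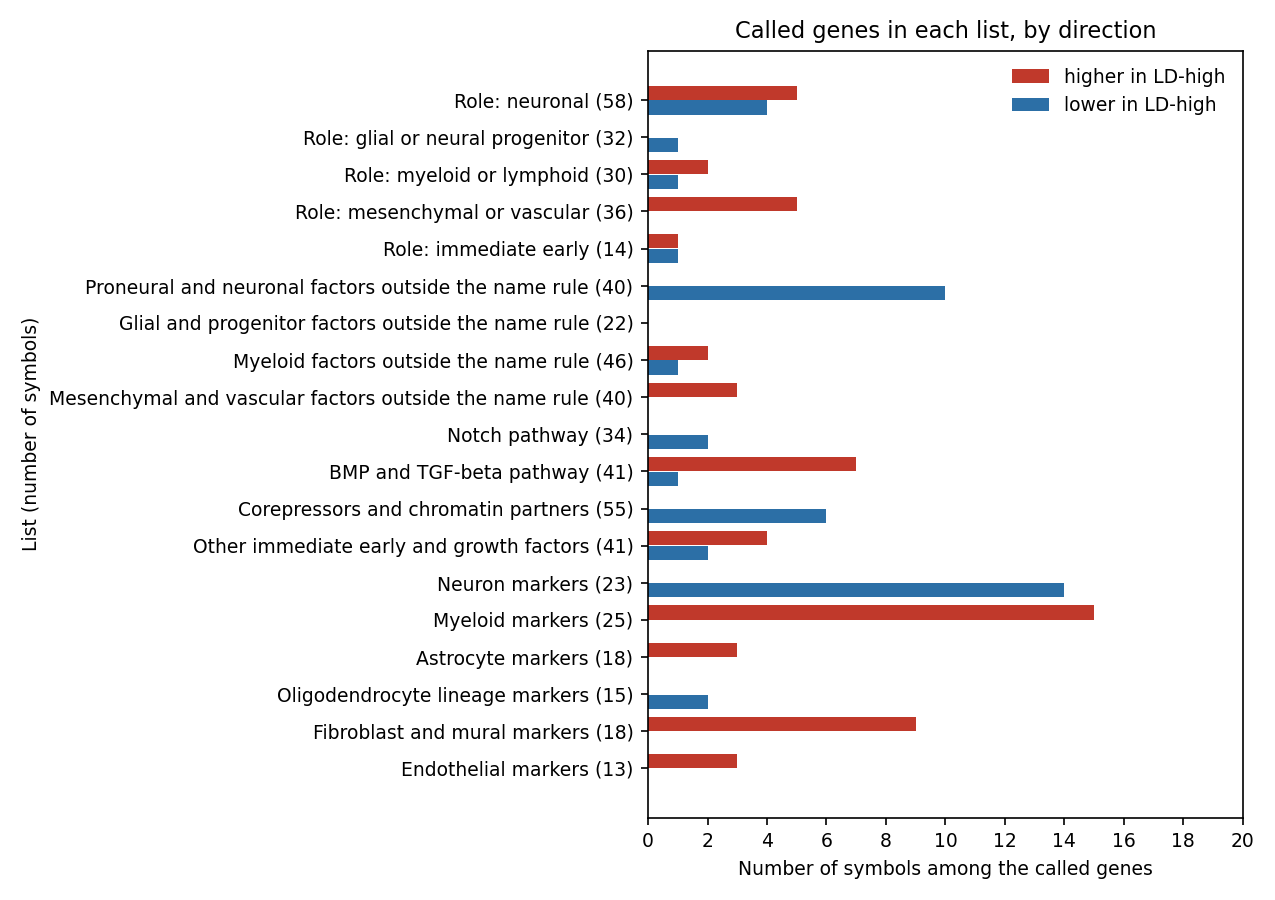
Number of symbols among the called genes, higher (red, upper bar) or lower (blue, lower bar) in LD-high glia, for the 5 lists of roles of the factors and the 14 lists of other genes, with the number of symbols in brackets. Neuron markers (14) and the neuronal list outside the rule (10, of which 5 are transcription factors) were called lower alone, and Elavl3 and Elavl4 are on both. The list of neuronal roles held 5 higher and 4 lower factors. Myeloid markers (15), fibroblast and mural markers (9) and mesenchymal or vascular factors (5) were called higher alone. Over all tested genes 4.92% were called higher and 4.22% lower.

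The authors' deposited sheets of gene ontology terms name no genes, so that which factors count in a term is not known from them. Among the lower genes they list neurogenesis with a Bonferroni-corrected value of 1.19e-23, neuron differentiation with 3.95e-15 and regulation of gene expression with 0.0152. Among the higher genes they list osteoblast differentiation with a corrected value of 0.0194 and ossification with 0.0111.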

How the data were processed

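Per the labels' protocols, RNA was amplified (Ovation RNA-seq v2) before sequencing, which adds its own bias to the levels. The tools were Bowtie2 and Cuffdiff and the build rn6, per the submitters' processing notes; tool versions, annotation and strand are not stated there. Per the file headers, the authors deposited for each called gene 1 level in each group, the log2 fold change and both its p-value and its q-value. No unit stands in the headers; the deposited levels are read as FPKM, normalized by the authors to transcript length and mapped fragments, since that is what Cuffdiff reports. Columns of single samples number 0, so no replicate test could be run and depth is unknown.

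Some log2 cells of the lower genes hold an error text, so every log2 change printed for a gene was computed here from both deposited levels, as LD-high over LD-low, with Python 3.11.15 and pandas 2.3.3. It differed from the log2 values that the authors deposited for the higher genes by at most 9.94e-06. The 12981 genes tested were recovered from the deposited p-value and q-value at 91 distinct p-values (12980.96 to 12981.04), a step tested on simulated data. Starts were raised by 1.

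The factors are the called genes whose name begins with one of a fixed set of family names, with 1 such name not reported here. Families, roles, other lists and motifs were fixed by symbol, and the members and lists were chosen with earlier results of these data known, so no list was tested. Every factor is named with both levels; log2 change and q are given for the 2 largest changes per family and direction, the 5 largest per direction, and a few others chosen after their values were seen. Of other lists up to 4 called genes with the largest change are named, with a few more chosen after their values were seen. Promoters and gene lengths are from RefSeq, GRCr8, matched by symbol (32 of 32 for lengths, 19 of 32 for promoters). The p-value of each gene ontology term is the authors' own, per the file headers.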

Additional observations from a re-analysis of the deposited data

How the results depend on the processing

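The counts rest on the authors' threshold. At q below 0.01 the factors numbered 5 higher and 8 lower (2.29% and 1.98% of all tested genes were called so), in 10 name groups, with median log2 changes of 2.03 and -1.56, and 9 of the factors stood on a list of roles, against 16 at q below 0.05. With an absolute log2 change of at least 1 they numbered 8 higher and 13 lower (3.14% and 3.29% of all tested genes), with medians of 1.93 and -1.42. All medians of log2 change are over factors above 0 in both groups. Without the 2 names that are no DNA-binding factors by general knowledge (Zfp36l2 and Zfp804a) the median of the higher factors was 1.68. A level of at least 1 FPKM in the higher group, or leaving out the gene listed at 0, kept each count within 1.5 times its value. Among the 26 counts by family or role, 16 moved by more than 1.5 times at q below 0.01 and 9 with the minimum change. A pseudocount of 1 kept the direction of all 31 factors with a log2 change, but 8 rather than 12 lower factors then changed by more than 2-fold. No paired analysis was possible because the tables hold 1 value per group and no columns of single samples, and for the same reason leaving out single replicates was not run. For 7 factors (Neurod1, Zfp142, Pou2f2, Pou6f1, Nr2c2, Zic1 and Zfp804a) the locus in the authors' table was over 2 times or under 0.5 times as long as the RefSeq gene. The effect on their levels was not tested.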
